A study of Mus musculus with 9 samples.

Results

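Lipid mediator genes were followed in CD103-positive lung dendritic cells before and after a period in culture. The set holds 10 genes: Gpr183, the sphingosine-1-phosphate (S1P) receptors S1pr1, S1pr3 and S1pr4, the prostaglandin E2 receptors Ptger2 and Ptger4, the prostaglandin enzymes Ptgs2 and Ptges, the leukotriene enzyme Alox5 and the leukotriene B4 receptor Ltb4r1. Members were taken by symbol, and each of the 10 had 1 row among 45535 rows with a gene symbol. The cells came from C57/BL6j mice 7 days into bleomycin, which injures the lung and serves as a model of fibrosis, and lungs were digested with collagenase. Cells were pulled out by magnetic bead for CD103. They were either lysed directly (before culture, 5 samples) or cultured for 18 h in RPMI that held 10% FBS and 1% penicillin and streptomycin (after culture, 4 samples). All 9 samples share the bleomycin treatment, and lung or cells without bleomycin are not analysed here. The labels do not say whether samples came from separate animals or pools, so p-values measure the spread between these samples.

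Lipid mediators are small signals made from membrane lipids, and most act through G protein-coupled receptors. Prostaglandins begin with arachidonic acid, which the cyclooxygenases Ptgs1 and Ptgs2 turn into prostaglandin H2 and Ptges turns into prostaglandin E2. Leukotrienes begin with the same acid and 5-lipoxygenase (Alox5). S1P and oxysterols form gradients in tissue that guide the movement of lymphocytes and dendritic cells, and prostaglandin E2 is a known signal in dendritic cell maturation and migration.

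Most of the set was lower after culture. By a linear model on log2 values (limma, adjusted p under 0.05), 8 of the 10 genes changed: 7 fell, Ptges rose, and S1pr1 and Ptger2 did not pass. The falls ran from 3.92-fold for Ptgs2 to 1.49-fold for S1pr4, and Ptges rose 3.21-fold. Culture changed much of the transcriptome, and 68.8% of the 18202 tested genes passed the same test, 34.6% as lower and 34.2% as higher. The 8 of 10 called members therefore lie near the share of all genes, whereas the split by direction was 7 lower to 1 higher. The groups did not overlap for 7 members, against 57.3% of all tested genes, and 5 members were called with at least a 2-fold change, against 32.7%. The median log2 fold change was -0.80 over the members and 0.00647 over all tested genes, and the median size without sign was 1.10 against 0.64. All 10 members averaged 10 or more normalized counts across the 9 samples, the level needed to be tested.

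**Figure D1:**
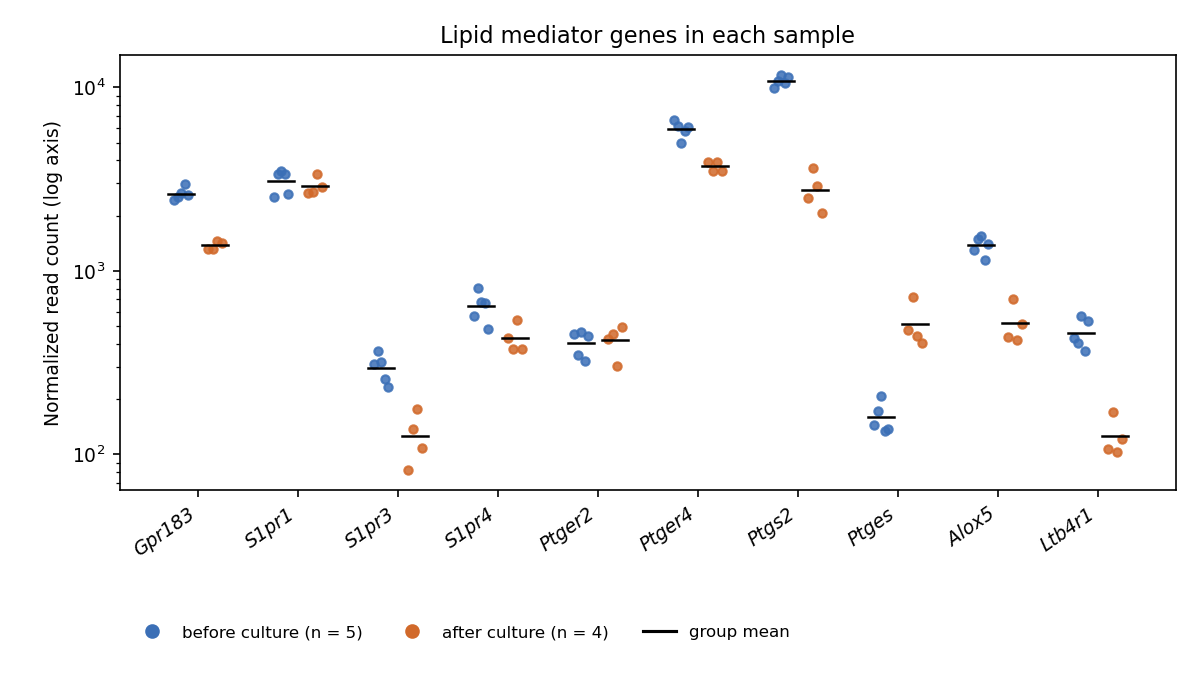
Normalized read counts (log axis) of the 10 lipid mediator genes in each of the 5 samples before and 4 after culture, with bars at the group means. Ptges is the 1 gene with all samples after culture above those before, and the groups overlap for S1pr1, S1pr4 and Ptger2.

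Levels are normalized read counts, which are gene counts divided by 1 factor per sample. Depth ran from 14.7 to 35.3 M reads in named genes, and each read counted as 0.758 to 1.79 after scaling. The smallest number of reads behind any member value was 77, for Ptges before culture. Replicate 4 before culture stood apart from the other 4 samples of its group, with a chi-square per degree of freedom of 22.7 to 35.3 in pairs that held it and 6.43 to 11.0 in pairs that did not. Samples after culture differed as well, with pairs from 12.3 (replicates 1 and 4) to 60.4 (replicates 2 and 3). The count of 8 called members was 8 in each of the 9 fits that left out 1 sample. Itgae, which encodes CD103 itself, went from 18138 ± 1537 to 1727 ± 335 and Xcr1, a cDC1 receptor, from 5836 ± 781 to 114 ± 32.5. The cDC1 markers (9 genes, of type 1 conventional dendritic cells, which most CD103-positive lung dendritic cells are) were read in every sample, with a summed level of 138971 to 167224 before and 29685 to 33010 after culture. Of the 9, 7 fell and 2 rose: Flt3 went from 8170 ± 638 to 13082 ± 1987 and Batf3 from 511 ± 95.4 to 746 ± 96.4. Wdfy4, which went from 75717 ± 6275 to 4761 ± 811, made up much of the sum. All 8 markers of mature dendritic cells rose, from a sum of 46884 to 50362 to one of 230335 to 258118.

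The stretches before the starts of Ptgs2 and Ptges are shown because these enzymes act in sequence and moved in opposite directions, and that of Ltb4r1 because it holds a motif match. They are the 250 bases 5′ of the start in RefSeq (GRCm38.p6), printed 5′ to 3′ on the gene's strand. The Ptges window lies inside the GENCODE span of the gene, before an internal start, because another annotated transcript begins further upstream. RefSeq entries were found for 9 of the 10 members, and not for S1pr1. Capitals mark a match to 1 of the motifs searched on both strands.
Ptgs2 (chr1:150099781-150100030, plus strand): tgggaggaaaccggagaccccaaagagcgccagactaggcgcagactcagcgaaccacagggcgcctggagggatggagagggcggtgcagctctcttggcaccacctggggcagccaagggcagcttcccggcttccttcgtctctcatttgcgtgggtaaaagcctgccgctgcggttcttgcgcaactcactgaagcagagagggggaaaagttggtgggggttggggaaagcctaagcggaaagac
Ptges (chr2:30903298-30903547, minus strand): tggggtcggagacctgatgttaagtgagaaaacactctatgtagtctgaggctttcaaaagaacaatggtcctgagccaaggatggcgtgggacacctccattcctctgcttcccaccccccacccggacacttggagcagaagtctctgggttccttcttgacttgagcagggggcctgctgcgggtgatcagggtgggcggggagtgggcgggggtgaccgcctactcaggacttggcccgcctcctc
Ltb4r1 (chr14:55765712-55765961, plus strand): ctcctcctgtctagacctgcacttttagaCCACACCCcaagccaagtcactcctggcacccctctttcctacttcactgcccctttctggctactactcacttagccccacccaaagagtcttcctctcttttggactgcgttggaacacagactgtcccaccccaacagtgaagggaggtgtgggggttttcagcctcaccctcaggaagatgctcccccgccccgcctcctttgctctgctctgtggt

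The TATA box was searched as TATAAA, the cAMP response element as TGACGTCA and the AP-1 site as TGACTCA. The NF-kB site was searched in the forms GGGACTTTC, then GGGAATTTC, then GGGGATTTC. The E-box was searched as CACGTG and the KLF site in the form GGGTGTGG. Among the 9 windows the only match was the KLF form in Ltb4r1, on the minus strand with its first printed base at position -221 from the start, and 3.20% of 32851 promoters hold that form. TATAAA was in 12.4% of them, CACGTG in 6.02%, TGACTCA in 4.46% and TGACGTCA in 1.55%. The 3 NF-kB forms were in 0.289%, 0.234% and 0.195%, in the order given. No match says only that these letters are not in these windows. The Ptgs2 window also holds up to 183 exon bases of Ptgs2os, a neighbouring noncoding gene read at 6.70 to 16.1 before and 3.80 to 12.1 after culture.

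Ptgs2, the inducible cyclooxygenase, had the largest change of the set. It lies at chr1:150100031-150108227 on the plus strand (GRCm38, GENCODE M21). Its normalized counts were 9890, 10841, 11666, 10532 and 11341 before culture and 2498, 3621, 2888 and 2075 after culture. Every sample after culture was below every sample before. The mean fell from 10854 ± 694 (SD, n = 5) to 2771 ± 657 (SD, n = 4), which is -2.00 on the log2 scale (SE 0.128, limma adjusted p = 1.24e-08).

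Ptgs1, the constitutive cyclooxygenase, moved the other way. It went from 596 ± 83.6 to 870 ± 271 (SD), with overlapping groups and a log2 fold change of 0.51 (limma adjusted p = 0.0144). Per kilobase of exon, Ptgs2 made up 93.9 ± 0.755% (SD) of the 2 cyclooxygenases before and 73.1 ± 3.81% after culture. The log2 ratio of Ptgs2 to Ptgs1 within a sample does not depend on the scaling between samples. It was 4.02, 4.07, 4.08, 4.48 and 4.31 before and 1.68, 1.51, 2.10 and 1.46 after culture, without overlap. The difference of -2.51 had an exact two-sided permutation p of 0.0159, the smallest this design allows (adjusted over the 4 ratios tested, 0.0317). With 1 sample left out the difference ran from -2.64 to -2.43 and the adjusted exact permutation p from 0.0381 to 0.0714. The adjusted p was under 0.05 without replicate 3 before or replicate 3 after culture, and over it without any 1 of the other 7 samples. The groups stay apart in each of these fits, so the unadjusted p is always the smallest possible, 0.0286 or 0.0357. Only the p-values of the other ratios decide whether the adjusted p passes, so these fits do not show a dependence on single samples.

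Ptges, the microsomal prostaglandin E synthase that acts after the cyclooxygenases, was the 1 member to rise. It lies at chr2:30889471-30929863 on the minus strand. Its normalized counts were 144, 172, 208, 134 and 138 before culture and 474, 722, 440 and 407 after culture. Every sample after culture was above every sample before, and the mean rose from 159 ± 31.0 to 511 ± 143 (log2 fold change 1.66, SE 0.177, limma adjusted p = 2.03e-06). Despite the opposite directions, Ptgs2 stayed above Ptges in level per kilobase, at 605 ± 143 against 130 ± 36.4 after culture (SD, n = 4).

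Of 12 other genes of prostanoid synthesis and breakdown, 11 were tested, 5 rose and 4 fell. Ptgr1, which acts in the breakdown of prostaglandins and leukotriene B4, rose 4.72-fold from 146 ± 30.7 to 689 ± 206. Slco2a1, the prostaglandin uptake transporter, was the largest fall of this list, 15.6-fold from 7815 ± 1256 to 501 ± 94.7 (log2 fold change -3.97, limma adjusted p = 3.28e-11). Hpgd, which oxidizes prostaglandin E2 to an inactive form, fell 5.25-fold from 1216 ± 460 to 232 ± 40.5. Pla2g4a, Ptges3 and Abcc4 were the other genes that rose beside Ptgs1 and Ptgr1. Hpgds (518 ± 53.7 against 423 ± 41.4) and Ptgis (168 ± 34.6 against 121 ± 14.0), the synthases of prostaglandin D2 and prostacyclin, were also called lower, with overlapping groups. Neither call held under quantile normalization (limma adjusted p = 0.0979 and 0.207), and Hpgds was also lost without replicate 1 or 3 after culture. Ptgis was also lost without replicate 1 or 3 before and without replicate 3 or 4 after culture.

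Slco2a1 and Hpgd are known in lung endothelium and epithelium, and markers of both tissues moved the same way. All 6 endothelial markers fell, and their summed level went from 21920 to 31725 before to 3189 to 4150 after culture. All 6 lung epithelial markers fell as well, from 22659 to 36029 down to 4016 to 7050, and no marker of either list was at or below 3 reads in all samples. Napsa (7835 ± 548 to 1789 ± 181) and Cdh1 (6244 ± 685 to 673 ± 69.8) made up much of the epithelial sum. These markers did not all vary together. In replicate 4 before culture Sftpc (16826) and Scgb1a1 (4965) were at their highest, and Napsa (7064) and Cdh1 (5303) at their lowest before culture. The part of either tissue in the falls was not tested. In bulk RNA, fewer cells of a type and less RNA per cell cannot be told apart.

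Ptger4, the EP4 receptor for prostaglandin E2, fell and Ptger2, the EP2 receptor, did not pass the test. Both receptors couple to cAMP. Ptger4 (chr15:5206661-5244187, minus strand) was read at 6655, 6122, 4949, 5809 and 6054 before and 3905, 3481, 3935 and 3493 after culture. No sample after culture reached the lowest before, and the mean fell 1.60-fold from 5918 ± 623 to 3704 ± 250 (log2 fold change -0.67, SE 0.0873, limma adjusted p = 1.36e-05). Ptger2 (chr14:44988195-45003820, plus strand) was read at 454, 349, 466, 321 and 440 before and 425, 451, 305 and 492 after culture. The groups lay on top of each other, at 406 ± 66.3 and 418 ± 80.4, with a log2 fold change of 0.04, a 95% interval from -0.29 to 0.37 and a limma adjusted p of 0.845.

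The log2 ratio of Ptger4 to Ptger2 was 3.87 ± 0.31 before and 3.16 ± 0.38 after culture (SD), a difference of -0.71 with overlapping groups (exact two-sided permutation p = 0.0317, adjusted over the 4 ratios 0.0423). With 1 sample left out the difference ran from -0.88 to -0.60 and the adjusted exact permutation p from 0.0381 to 0.0952, and it stayed under 0.05 without replicate 3 before or replicate 3 after culture and not without any 1 of the other 7 samples. Per kilobase, Ptger4 was 84.8 ± 2.00% of the 4 prostaglandin E2 receptors before and 79.6 ± 1.85% after culture. Part of the Ptger4 exons lies opposite the pseudogene Gm15937 (15.3% of exon bases), which itself was read at 1.24 to 3.58 before and 1.77 to 5.46 after culture. Ptger2 shares 4.74% of its exon bases with the antisense gene Gm17173, read at 28.4 ± 4.10 before and 38.7 ± 13.4 after culture, and without known strandedness such reads cannot be told apart.

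Among the 7 other prostanoid receptors, 5 were tested, 1 rose and 2 fell. Ptgir, the prostacyclin receptor, rose 3.12-fold from 372 ± 53.0 to 1163 ± 134 (limma adjusted p = 3.59e-08). Ptgdr2, a prostaglandin D2 receptor, fell from 82.0 ± 17.4 to 23.4 ± 3.95, and 37.8% of its transcript windows of 50 bases also match other genes, chiefly Ccdc86. Ptger1 was called lower (413 ± 12.8 against 318 ± 50.9), and its call did not hold under quantile normalization (limma adjusted p = 0.0579). The values of Ptgdr2 and Ptger1 are both uncertain, since strandedness is not known and their reads may not all be their own.

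**Figure D2:**
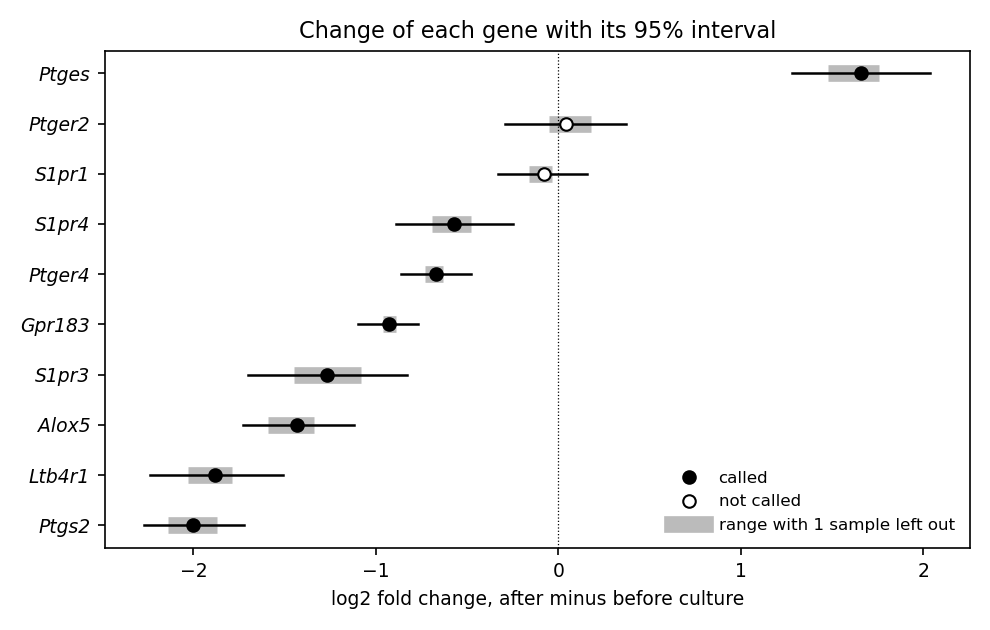
Log2 fold change of each member, after minus before culture, with its 95% interval (lines) and the range over the 9 fits that left out 1 sample (grey bars). Ptges lies at 1.66 and Ptgs2 at -2.00, and the intervals of S1pr1 and Ptger2 include 0.

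Alox5 and Ltb4r1, at the 2 ends of the leukotriene B4 pathway, fell together. Alox5 (chr6:116410077-116461178, minus strand) makes leukotriene A4. It was read at 1295, 1487, 1540, 1149 and 1403 before and 435, 706, 422 and 512 after culture, without overlap. The mean fell 2.65-fold from 1375 ± 157 to 519 ± 131 (log2 fold change -1.43, SE 0.141, limma adjusted p = 9.70e-07). Ltb4r1 (chr14:55765962-55768494, plus strand) encodes the high-affinity leukotriene B4 receptor BLT1. It was read at 429, 407, 565, 365 and 533 before and 107, 170, 103 and 122 after culture, again without overlap. The mean fell 3.67-fold from 460 ± 85.6 to 125 ± 30.8 (log2 fold change -1.88, SE 0.169, limma adjusted p = 3.95e-07).

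The steps between them were lower too. Alox5ap, the protein that presents arachidonic acid to 5-lipoxygenase, fell 2.90-fold from 9688 ± 919 to 3340 ± 948. The log2 ratio of Alox5 to Alox5ap was -2.82 ± 0.12 before and -2.67 ± 0.23 after culture (SD), and the difference of 0.15 did not pass (exact two-sided permutation p = 0.270, also when adjusted over the 4 ratios). Lta4h, which makes leukotriene B4, went from 2810 ± 204 to 1972 ± 157, and Ltc4s, which makes leukotriene C4, from 348 ± 69.2 to 124 ± 38.9. Of the 8 other leukotriene and lipoxygenase enzymes tested, 4 fell and 1 rose. The 1 that rose was Ephx2, the soluble epoxide hydrolase, from 14.2 ± 5.83 to 42.3 ± 10.6.

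The other leukotriene receptors gave 2 falls among 3 tested genes. Cysltr1 fell 1.98-fold from 822 ± 41.7 to 416 ± 103. Ltb4r2, the low-affinity leukotriene B4 receptor, fell from 28.4 ± 7.41 to 6.36 ± 0.931. Cysltr2 did not pass (82.8 ± 22.2 against 62.1 ± 15.3, limma adjusted p = 0.135).

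Neutrophils and macrophages are known to express Alox5 and Ltb4r1. All 7 tested of the 8 neutrophil markers fell, from a summed level of 14298 to 25015 before to 932 to 1902 after culture, and the eighth, Ly6g, was at 1.90 to 11.2 before and 0 in each sample after culture. The 7 monocyte and interstitial macrophage markers overlapped between the groups, with 0 higher and 2 lower, and their sum was 19667 to 42335 before and 17301 to 40324 after culture. Alveolar macrophage markers (6 genes, 1 higher and 4 lower) went from a sum of 17134 to 25601 down to 8027 to 11116. Ltc4s and Hpgds are also known in mast cells, and of 3 tested mast cell and basophil markers 2 fell, Gata2 (815 ± 129 to 48.1 ± 12.7) and Cyp11a1 (37.2 ± 20.4 to 8.32 ± 1.40). The sum of the 6 markers, 708 to 1025 before and 47.7 to 100 after culture, was mostly Gata2. Cpa3 did not pass (22.6 ± 7.86 against 12.1 ± 7.28), Mcpt8, Ms4a2 and Fcer1a were too low to test with overlapping groups, and Fcer1a was at or below 3 reads in every sample. The part of these cells in the falls was not tested.

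Among the S1P receptors S1pr4 and S1pr3 fell, and S1pr1 did not pass the test. S1pr1 (chr3:115710433-115715072, minus strand), which draws cells towards blood and lymph, was read at 2528, 3361, 3491, 3354 and 2613 before and 2644, 2679, 3384 and 2844 after culture. The groups overlapped at 3070 ± 460 and 2888 ± 342, with a log2 fold change of -0.08, a 95% interval from -0.33 to 0.16 and a limma adjusted p of 0.538. S1pr4 (chr10:81497747-81500132, minus strand), a receptor mostly of blood and lymphoid cells, was read at 570, 804, 675, 666 and 485 before and 430, 373, 543 and 375 after culture. One sample after culture, replicate 3, lay inside the range before culture, and the mean fell 1.49-fold from 640 ± 120 to 430 ± 79.8 (log2 fold change -0.57, SE 0.149, limma adjusted p = 0.00395).

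S1pr3 (chr13:51408639-51422797, plus strand), a receptor also known in endothelium and fibroblasts, was the lowest of the 3. It was read at 312, 364, 319, 259 and 233 before and 82.1, 137, 177 and 109 after culture. All samples after culture were below those before, and the mean fell 2.35-fold from 297 ± 51.9 to 126 ± 40.8 (log2 fold change -1.27, SE 0.203, limma adjusted p = 8.98e-05). Beside the endothelial markers, 5 of 6 fibroblast and smooth muscle markers fell, from a sum of 15913 to 29215 before to 2625 to 5149 after culture, and their part in the fall of S1pr3 was not tested.

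The log2 ratio of S1pr1 to S1pr4 was 2.15, 2.06, 2.37, 2.33 and 2.43 before and 2.62, 2.84, 2.64 and 2.92 after culture. The groups did not overlap, and the ratio rose by 0.49 (exact two-sided permutation p = 0.0159, the smallest this design allows, adjusted over the 4 ratios 0.0317). With 1 sample left out the difference ran from 0.43 to 0.53 and the adjusted exact permutation p from 0.0381 to 0.0714. The adjusted p was under 0.05 without replicate 3 before or replicate 3 after culture and not without any 1 of the other 7 samples. As for Ptgs2 to Ptgs1, the unadjusted p was the smallest possible in each of these fits, and the p-values of the other ratios decided whether the adjusted p passed.

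The remaining receptors of the family, S1pr2 and S1pr5, went in opposite directions. S1pr2 rose 2.61-fold from 586 ± 42.5 to 1529 ± 319 (log2 fold change 1.36, limma adjusted p = 6.02e-07). S1pr5, known in NK cells and patrolling monocytes, fell 16.2-fold from 204 ± 17.3 to 12.6 ± 5.65 (log2 fold change -4.01, limma adjusted p = 8.85e-09). All 5 NK cell markers fell, from a sum of 1259 to 2630 to 255 to 405, and their part was not tested. Per kilobase of exon, S1pr1 was 67.2 ± 2.53% of the 5 receptors before and 69.9 ± 2.22% after culture. S1pr2 went from 4.98 ± 0.783% to 14.4 ± 3.67% of the family, S1pr4 from 17.8 ± 1.46% to 13.3 ± 1.65% and S1pr3 from 4.46 ± 0.663% to 2.07 ± 0.521%. The sum of the family per kilobase was 1498 ± 202 before and 1354 ± 118 after culture, with overlapping groups.

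**Figure D3:**
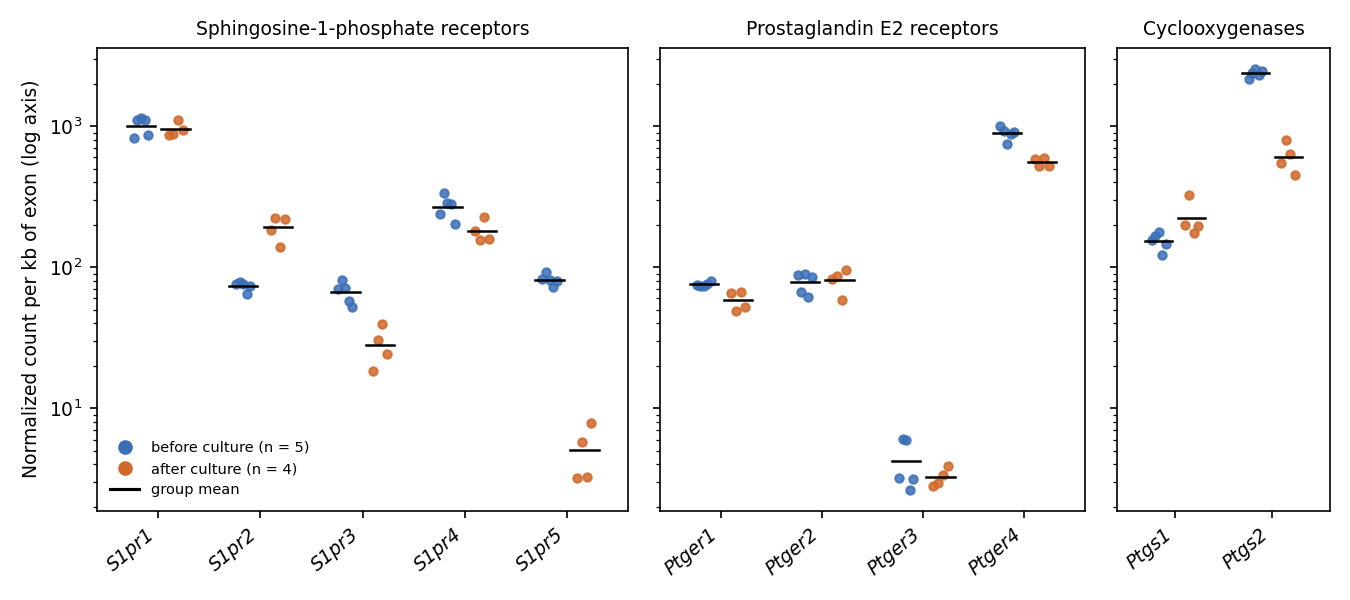
Normalized count per kilobase of exon (log axis) in each sample for the 5 S1P receptors, the 4 prostaglandin E2 receptors and the 2 cyclooxygenases, before (5 samples) and after culture (4 samples), with bars at group means. S1pr1, Ptger4 and Ptgs2 are the highest of their families in both groups, and the means of S1pr2 and Ptgs1 are higher after culture.

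Genes that act on S1P itself moved both ways, with 3 higher and 3 lower of 10 tested. Sgpl1, the lyase that degrades S1P irreversibly, rose 2.97-fold from 4771 ± 218 to 14176 ± 977 (limma adjusted p = 4.24e-10). Spns2, an S1P exporter, fell 6.76-fold from 699 ± 132 to 103 ± 16.3. Plpp1, a lipid phosphatase, fell 7.79-fold from 1361 ± 121 to 175 ± 14.2, and 26.0% of its windows also match other genes, chiefly Mtrex. The kinases that make S1P did not pass, with Sphk1 at 307 ± 59.3 and 241 ± 93.0 and Sphk2 at 1429 ± 135 and 1647 ± 201.

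Of 4 regulators of S1P receptors, 3 fell. Klf2, a transcription factor that activates S1pr1, fell 5.69-fold from 8176 ± 1013 to 1437 ± 146 (limma adjusted p = 1.73e-10). Cd69, which binds S1pr1 protein and takes it off the surface, fell 8.25-fold from 2447 ± 421 to 297 ± 38.0. Grk2, a receptor kinase, fell 1.49-fold from 12175 ± 977 to 8197 ± 480. Foxo1, the fourth regulator, did not pass.

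Gpr183 (also called EBI2), a receptor for dihydroxylated oxysterols that positions B cells, T cells and dendritic cells in lymphoid tissue, fell with the smallest standard error of the set. It lies at chr14:121952551-121965195 on the minus strand, inside Ubac2, which runs on the opposite strand and shares no exon bases with it. Gpr183 was read at 2431, 2510, 2665, 2969 and 2583 before and 1317, 1314, 1448 and 1418 after culture. Samples after culture lay far below those before, and the mean fell 1.91-fold from 2631 ± 208 to 1374 ± 68.8 (log2 fold change -0.93, SE 0.0748, limma adjusted p = 1.18e-07). Ubac2 was at 1427 ± 109 before and 1548 ± 19.3 after culture, with overlapping groups. The sums of B cell and T cell markers also overlapped between the groups, at 2390 to 4460 against 2435 to 3350 and at 5970 to 7041 against 5441 to 7082. Of the 5 B cell markers 1 rose and 1 fell, and of the 7 T cell markers 1 rose and 2 fell. The part of these cells in the fall of Gpr183 was not tested.

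Of the 4 enzymes that make or break down its ligand, 2 fell and 2 did not pass. Cyp27a1, an oxysterol hydroxylase, went from 1117 ± 89.5 to 408 ± 39.7 (limma adjusted p = 1.15e-08). Cyp7b1, which completes the ligand, went from 128 ± 35.2 to 23.1 ± 10.4. Ch25h, which makes 25-hydroxycholesterol, was at 347 ± 64.5 and 366 ± 24.5 (limma adjusted p = 0.549). Hsd3b7, which inactivates the ligand, was at 39.8 ± 11.5 and 59.0 ± 14.5, and 94.8% of its windows also match other genes, chiefly Gm49388. It passed under quantile normalization (limma adjusted p = 0.0100), with a replicate block by library number (0.0243) and without replicate 1 before culture (0.0329).

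Set against each other per kilobase of exon, the members spanned a wide range and changed order. Before culture Ptgs2 led at 2370 ± 152 normalized counts per kilobase, clear of S1pr1 (1008 ± 151), Gpr183 (911 ± 71.9) and Ptger4 (890 ± 93.8), whose ranges overlapped from each to the next. Alox5 (335 ± 38.2), Ltb4r1 (330 ± 61.4) and S1pr4 (268 ± 50.4) formed a middle level, each overlapping the next. Ptger2 (78.2 ± 12.8), S1pr3 (66.6 ± 11.6) and Ptges (40.5 ± 7.88) were lowest, again each overlapping the next.

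After culture S1pr1 led at 948 ± 112 per kilobase, clear of Ptgs2 (605 ± 143), which overlapped Ptger4 (557 ± 37.7). Gpr183 (476 ± 23.8) lay below Ptger4 without overlap. From S1pr4 (180 ± 33.4) through Ptges (130 ± 36.4), Alox5 (126 ± 31.9), Ltb4r1 (89.9 ± 22.1) and Ptger2 (80.5 ± 15.5), each gene overlapped the next in line, and S1pr3 was lowest at 28.3 ± 9.14.

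The samples of 1 group also differed among themselves in a shared way, a pattern chosen after the values were seen. After culture, replicate 2 had the highest Ptgs2, Ptges, Alox5 and Ltb4r1 of the 4 samples, and replicate 3 the highest Gpr183, S1pr1, S1pr3, S1pr4 and Ptger4. Replicate 2 was 0.42 to 0.53 above the group mean (log2) for those 4 genes. The same replicate had the highest sum of monocyte and interstitial macrophage markers (40324, against 17301 in replicate 3, the lowest). It was highest as well in the sums of cDC2, neutrophil, alveolar macrophage, endothelial, and fibroblast and smooth muscle markers, so the pattern was not limited to myeloid lists. The fibroblast and smooth muscle sum deviated by 0.52 there and the macrophage sum by 0.55 (log2). Replicate 3 had the highest sums of T cell, NK cell, lung epithelial, mature dendritic cell, and mast cell and basophil markers. Before culture, replicate 3 was highest in Ptgs2, Ptges, Alox5, Ltb4r1, Ptger2 and S1pr1, and replicate 4 lowest in Ptges, Alox5, Ltb4r1 and Ptger2. Those replicates were also the highest (42335) and the lowest (19667) in the macrophage sum. The low ends matched that sum only in part. Ptgs2 was lowest in replicate 1 before and replicate 4 after culture, and Ptges in replicate 4 after culture. In replicate 3 after culture, where the macrophage sum was lowest, Ptgs2 deviated by 0.09 (log2). Replicate 3 before culture was also highest in mature dendritic cell, cDC2, neutrophil, endothelial, mast cell and basophil, and fibroblast and smooth muscle sums. Replicate 4 before culture was also lowest in mature dendritic cell, cDC2 and neutrophil sums. By the number in the library name, replicates 2 and 3 after culture are libraries 3 and 4, so the samples with the highest macrophage sum in each group share a number, and so do the lowest. No call of a member changed in the fits without any 1 of these 4 samples, while calls of ratios and of Hpgds and Ptgis did, as given beside them. The part of other cells in these differences was not tested.

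**Figure D4:**
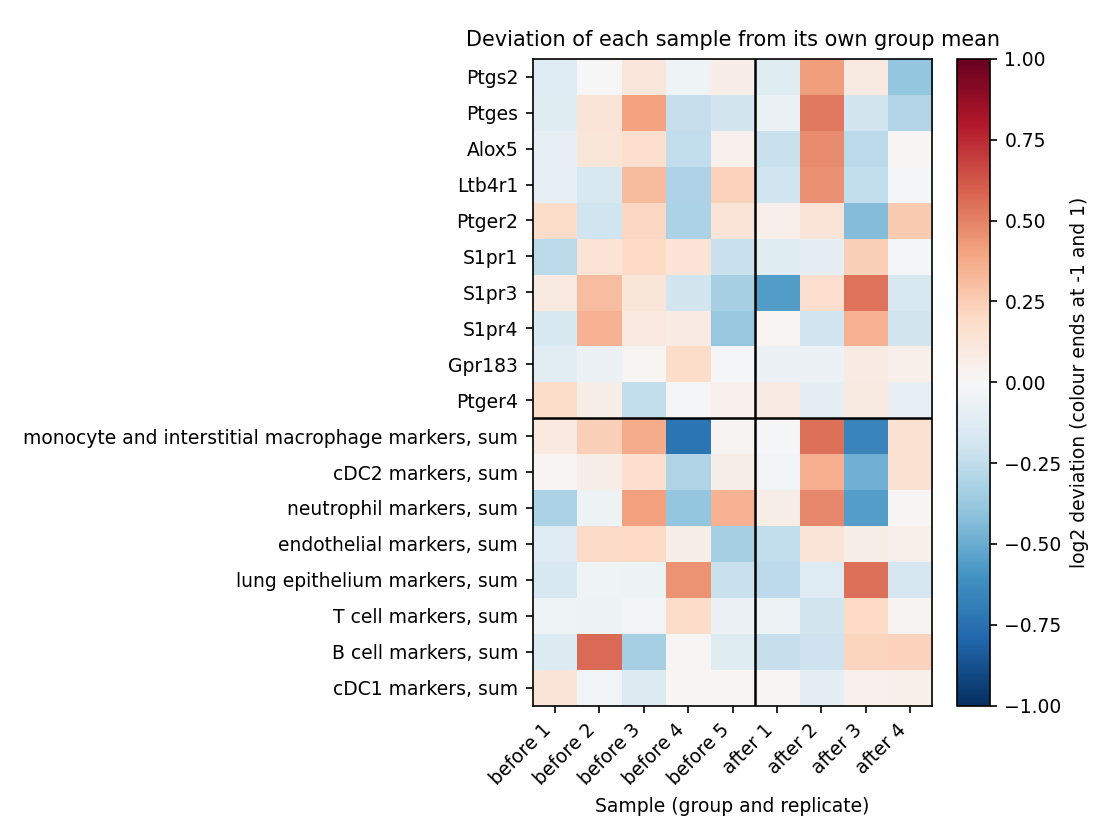
Deviation of each sample from the mean of its own group, in log2 units, for the 10 members (above the line) and the summed markers of 8 cell types (below it). After culture, replicate 2 is high for Ptgs2, Ptges, Alox5, Ltb4r1 and the macrophage, cDC2 and neutrophil sums, and replicate 3 is low for those sums. The fibroblast and smooth muscle sum, which deviates by 0.52 in replicate 2 after culture, is not drawn.

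Over all lists of the lipid mediator pathways, 66 of 70 further genes were tested, 15 rose, 29 fell and 22 did not pass. The share called was 66.7%, near the 68.8% of all tested genes. Their median log2 fold change was -0.35. Some of the largest changes were in genes that act on platelet-activating factor and lysophospholipids. Pla2g7, which degrades platelet-activating factor, rose 9.22-fold from 1979 ± 658 to 18240 ± 4977 (log2 fold change 3.22, limma adjusted p = 3.87e-08), and its receptor gene Ptafr went from 4622 ± 1014 to 7329 ± 1536 with overlapping groups (limma adjusted p = 0.00299). Enpp2 (autotaxin), which makes lysophosphatidic acid, fell 9.89-fold from 253 ± 52.3 to 25.5 ± 8.02, and Mgll, a lipase of monoacylglycerols, went from 708 ± 105 to 473 ± 138.

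Of 14 other lipid receptors tested, 3 rose and 6 fell. Lpar6, a lysophosphatidic acid receptor, rose 2.89-fold from 653 ± 142 to 1887 ± 401. Lpar5 fell 3.16-fold from 381 ± 30.0 to 121 ± 21.8, and Lpar3 1.58-fold from 496 ± 61.8 to 314 ± 46.7. Cmklr1, a receptor for chemerin and resolvin E1, was called higher (2158 ± 574 against 3895 ± 1513, limma adjusted p = 0.0139) with overlapping groups.

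**Figure D5:**
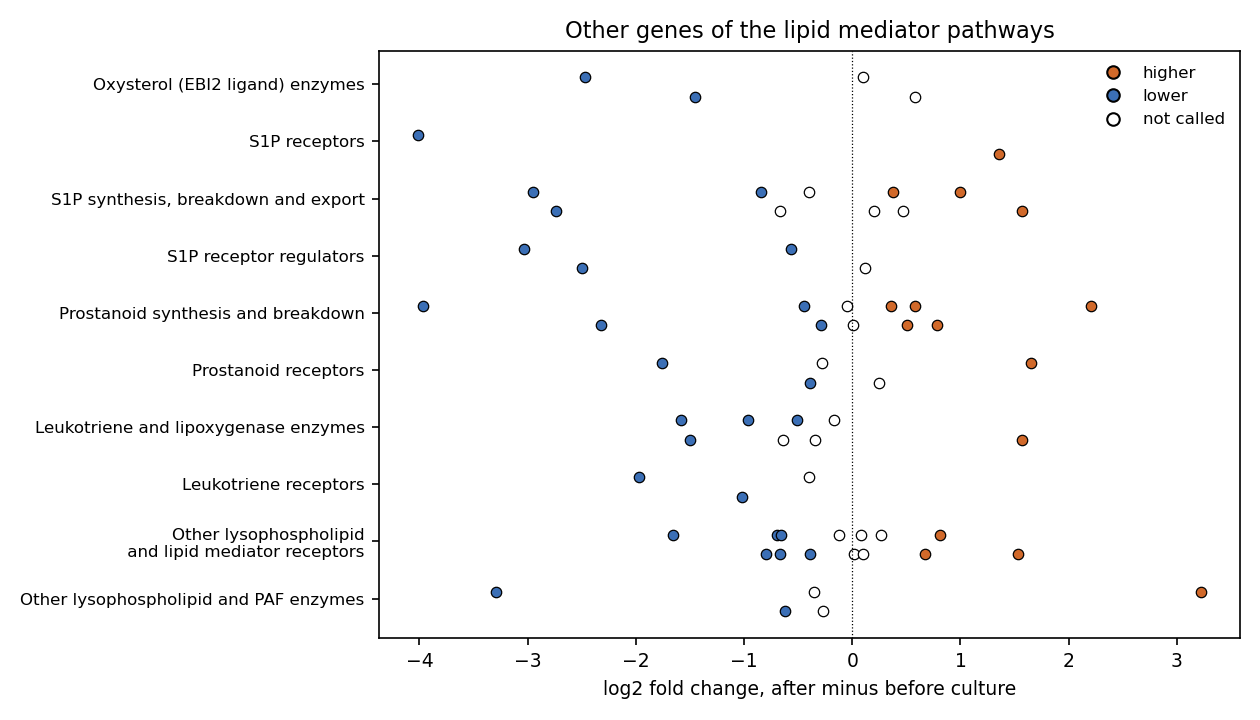
Log2 fold change, after minus before culture, of the 66 tested genes on the lipid mediator lists other than the 10 members, by list, with filled points for genes called higher or lower. Slco2a1 and S1pr5 lie near -4, and Pla2g7 at 3.22 is the highest.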

How the data were processed

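RNA of CD103-positive lung dendritic cells was sequenced in 5 samples before and 4 after culture. The authors deposited 1 signal value per gene and sample, a normalized read count. DESeq2 and GRCm38 are named in the submitters' processing notes. The aligner, counter, annotation and strandedness are not given in the sources used here. Within a tolerance of 0.1, 100% of values were whole multiples of 1 read, so whole reads were recovered. Of 49317 rows, 3782 without a symbol (3.87 to 10.9% of reads) were left out.

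Genes with a mean of at least 10 (18202) were fitted as log2(value + 1) with limma 3.58.1 (R 4.3.3; group only, trended moderation, two-sided, Benjamini-Hochberg over all tested genes). Folds are ratios of group means, and log2 fold changes understate low genes. Ratios of 2 genes were tested by exact permutation over 126 splits. Alternatives used edgeR 4.0.16 and DESeq2 1.42.0 on recovered reads, other scalings, filters and pseudocounts, a replicate block and leaving out samples. Scripts were tested on simulated data. Positions, exon lengths and shared windows of 50 bases came from GENCODE M21, which may not be the authors' annotation.

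The members and gene lists were chosen with earlier results of these data known. Besides members, the text names up to 3 genes per list with the smallest adjusted p, called genes against their list's majority, and the ratios' denominators. Genes outside this rule (Pla2g4a, Ptges3, Abcc4, Sphk1, Sphk2, Ch25h, Foxo1, Ptgs2os and other overlapping neighbours) were added after their values were seen. The set of promoter motifs was fixed with the lists.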

Additional observations from a re-analysis of the deposited data

Results flagged for a closer look

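Among 98 groups of values looked at for a sample far from the others, 3 had one, and chance flags about 1 in 20 groups. Grk2, the receptor kinase, was lowest in replicate 4 before culture, at 10452 against 12494 to 12888 in the other 4 samples. Cysltr1, the cysteinyl leukotriene receptor, was highest in the same replicate, at 895 against 792 to 818. Ptgdr2, the prostaglandin D2 receptor, was lowest in replicate 4 after culture, at 17.5 against 24.7 to 25.8 in the other 3 samples. All 3 genes kept their call and direction under each alternative run, including the fits without these samples.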

How the results depend on the processing

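The count of 8 called members was 8 under all 12 alternatives with all samples and in all 9 fits that left out 1 sample, with 7 lower and 1 higher in each. The other pathway genes gave 42 to 51 calls under the 12 and 43 to 47 in the 9, against 44. Ptger2, which was not called in any fit, changed sign to -0.0137 with a replicate block by the number in the library name, and ran from -0.0487 to 0.18 with 1 sample left out (limma adjusted p 0.252 to 0.972). A replicate block by the number in the title, over 4 pairs, gave differences of -0.73, -2.48 and 0.53 for the log2 ratios of Ptger4 to Ptger2, Ptgs2 to Ptgs1 and S1pr1 to S1pr4, with an adjusted exact p of 0.250, where the smallest unadjusted p is 0.125. With 1 sample left out these ran from -0.88 to -0.60, from -2.64 to -2.43 and from 0.43 to 0.53. Fewer samples raise the smallest p there. No block by the number in the library name was run for the ratios. Replicate numbers were not treated as pairs: deviations of same-numbered samples correlated at -0.213 to 0.0807 by title and 0.0447 to 0.349 by library name, where differently numbered samples ran from -0.302 to 0.0796. By library name the 4 pairs were at 0.0807, 0.247, 0.349 and 0.0447, and the higher values are a hint of pairing from the data. The library numbers after culture are 1, 3, 4 and 5, with 2 missing, and no label says that equal numbers are pairs. Neither block changed a call of a member. Of the 35 other genes named by the rule, 31 kept their call and direction under each alternative that tested them, and the exceptions were Hsd3b7, Hpgds, Ptgis and Ptger1. Ephx2, Ltb4r2 and Hsd3b7 were not tested at a minimum mean of 50. Quantile normalization moved the median of all genes most, to 0.0982 (log2). Depth did not limit the members, each read at least 77 times per sample.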
